A study of Mus musculus with 16 samples.

Results

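The livers of control and mutant female mice were compared for 38 genes of fatty acid oxidation, comprising the nuclear receptor PPAR alpha, its known targets and the enzymes of the pathway it controls. The members were taken from a list of gene symbols by a rule that uses no measured value, though the list was drawn up with earlier results of these data known, and all 38 had a row among the 15544 genes of the liver table. All 38 also passed the filter on low values that 12704 genes passed, a signal of 1 or more in at least 4 libraries. By role they were the receptor itself, 2 genes of fatty acid activation and binding, 5 of the carnitine shuttle, 11 of mitochondrial beta-oxidation, 7 of peroxisomal oxidation, 4 of microsomal omega-oxidation, 4 acyl-CoA thioesterases, 1 gene of ketone bodies and 3 other PPAR alpha targets.

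There were 16 liver libraries from females aged 27 weeks, 4 in each of 4 groups. Control mice carried a floxed oestrogen receptor alpha gene (Esr1 fl/fl), and mutants carried the same floxed gene with Cre driven by Nkx2-1 (Esr1 Nkx2.1-cre), so that the floxed allele was shared by all groups and Cre was not. Mice of each genotype ate standard chow or a high-fat diet (HFD), which lasted 17 weeks. Nkx2-1 is a gene of the ventral forebrain, thyroid and lung lineages and not of hepatocytes, so the level of Esr1 in liver checks no label. It was 7.59 to 15.95 in control-chow, 8.02 to 19.7 in mutant-chow and 6.14 to 8.09 in control-HFD libraries. In mutant-HFD it was 20.5 to 22.9 in replicates 2, 3 and 4 and 6.42 in replicate 1, which thus read like the controls on HFD. Whether the genotype label of that library is right was not tested, and HFD results that change without it are given with and without it. The labels do not state that each library was a separate mouse, so p-values measure the spread between these libraries.

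In fasting, fatty acids released from adipose tissue reach the liver, where they are bound in the cytosol, activated to acyl-CoA esters and either stored or burned. Long chains enter mitochondria as carnitine esters and are shortened by cycles of dehydrogenation, hydration, dehydrogenation and thiolysis, and the acetyl-CoA feeds ketone body synthesis. Peroxisomes shorten very long and branched chains, and cytochromes of the Cyp4a family in the endoplasmic reticulum oxidize the terminal carbon. PPAR alpha, a receptor for fatty acids, binds DNA with RXR at direct repeats of the hexamer AGGTCA spaced by a base, and fasting or fibrate drugs induce many of these genes through it, the Cyp4a genes most of all.

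The upstream sequence of 30 members was found among RefSeq promoters of build GRCm38.p6, each running from 250 bases before to 50 bases after a gene start, with 33 promoters in all because some genes had more than 1 start. They were searched on both strands for the direct repeat, which is AGGNCA followed by any base and AGGNCA again, and for the hexamer AGGTCA, which can lie inside the repeat. The direct repeat was found in 1 member, Fabp1, and in 0.381% of all 32851 promoters. The hexamer was found in 6 member genes (Acadm, Acadvl, Acot3, Acot4, Cpt1a and Fabp1) and in 16.3% of all promoters. Shown here is the promoter of Fabp1 (chr6:71199629-71199928, plus strand), because it alone of the members searched holds the repeat. Those of Cyp4a32 (chr4:115600688-115600987, plus strand) and Ucp2 (chr7:100493108-100493407, plus strand) are also shown. These genes had the smallest p-values among the members for genotype averaged over diets, though neither passed the adjusted threshold with all libraries. Capitals mark the matches, which read TGACCT where the hexamer lies on the opposite strand.
Fabp1: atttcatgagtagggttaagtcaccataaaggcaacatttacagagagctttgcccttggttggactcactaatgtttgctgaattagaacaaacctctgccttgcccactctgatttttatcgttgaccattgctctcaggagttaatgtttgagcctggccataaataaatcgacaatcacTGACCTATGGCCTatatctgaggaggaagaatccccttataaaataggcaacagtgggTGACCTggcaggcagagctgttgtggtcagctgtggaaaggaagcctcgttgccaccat
Cyp4a32: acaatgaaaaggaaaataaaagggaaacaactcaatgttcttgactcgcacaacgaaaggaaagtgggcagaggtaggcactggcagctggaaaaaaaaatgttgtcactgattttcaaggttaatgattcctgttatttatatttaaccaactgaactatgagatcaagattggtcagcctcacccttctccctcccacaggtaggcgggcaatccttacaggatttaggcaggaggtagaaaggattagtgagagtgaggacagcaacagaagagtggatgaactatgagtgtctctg
Ucp2: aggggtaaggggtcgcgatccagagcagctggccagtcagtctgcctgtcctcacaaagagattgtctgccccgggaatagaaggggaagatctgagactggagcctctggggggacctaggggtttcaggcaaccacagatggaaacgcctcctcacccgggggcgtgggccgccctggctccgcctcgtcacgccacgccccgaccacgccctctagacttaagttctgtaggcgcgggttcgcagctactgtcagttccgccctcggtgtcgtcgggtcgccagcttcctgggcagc
In Fabp1 the repeat starts 67 bases before the gene start, and a second hexamer starts 9 bases before it. The windows of Cyp4a32 and Ucp2 hold neither set of letters.

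All levels are in the unit deposited by the authors, a length-adjusted signal on the scale of TPM, in which each gene is given as its part of all transcripts, so levels can be set side by side between genes. Read depth cannot be recovered from it. The libraries summed to 905897 to 1119703, with 11834 to 12443 genes at 1 or more. The library titles fell into number series that each lie within 1 diet, and the labels do not say what the numbers mean. On HFD the lower-numbered series held control replicates 1, 2 and 3 and mutant replicate 1, and the higher-numbered series held mutant replicates 2, 3 and 4 and control replicate 4. In a fit with the series as a term, 25.2% of all genes differed between the HFD series, and 3 of the 4 libraries of each HFD genotype lay in 1 series, so the 2 can be told apart only in part. Of the marker lists of adipocytes, brown adipocytes, muscle and pancreas, 2 genes each had a row, with sums of 4.1 to 10.1, 3.11 to 8.87, 1.45 to 8.46 and 8.04 to 31.2, while Adipoq, Ucp1, Acta1 and Prss1 had none. The 8 hepatocyte genes summed to 58260 to 99970.

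Fabp1, the liver fatty acid binding protein, was the most abundant member, with a median signal of 6373 over the 16 libraries and a range of 2555 to 11780. The peroxisomal thiolase Acaa1b followed with a median of 877, then the mitochondrial thiolase Acaa2 with 807, the medium-chain acyl-CoA dehydrogenase Acadm with 379.8 and the long-chain acyl-CoA synthetase Acsl1 with 367. The lowest medians were those of Pdk4, the kinase that shuts off pyruvate dehydrogenase, at 4.64, Cyp4a31 at 6.85 and Cyp4a32 at 9.08. Together the members took 0.625% of the summed signal in mutant-chow replicate 2 and 2.27% in control-chow replicate 1, which were the extremes of the 16 libraries.

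**Figure D1:**
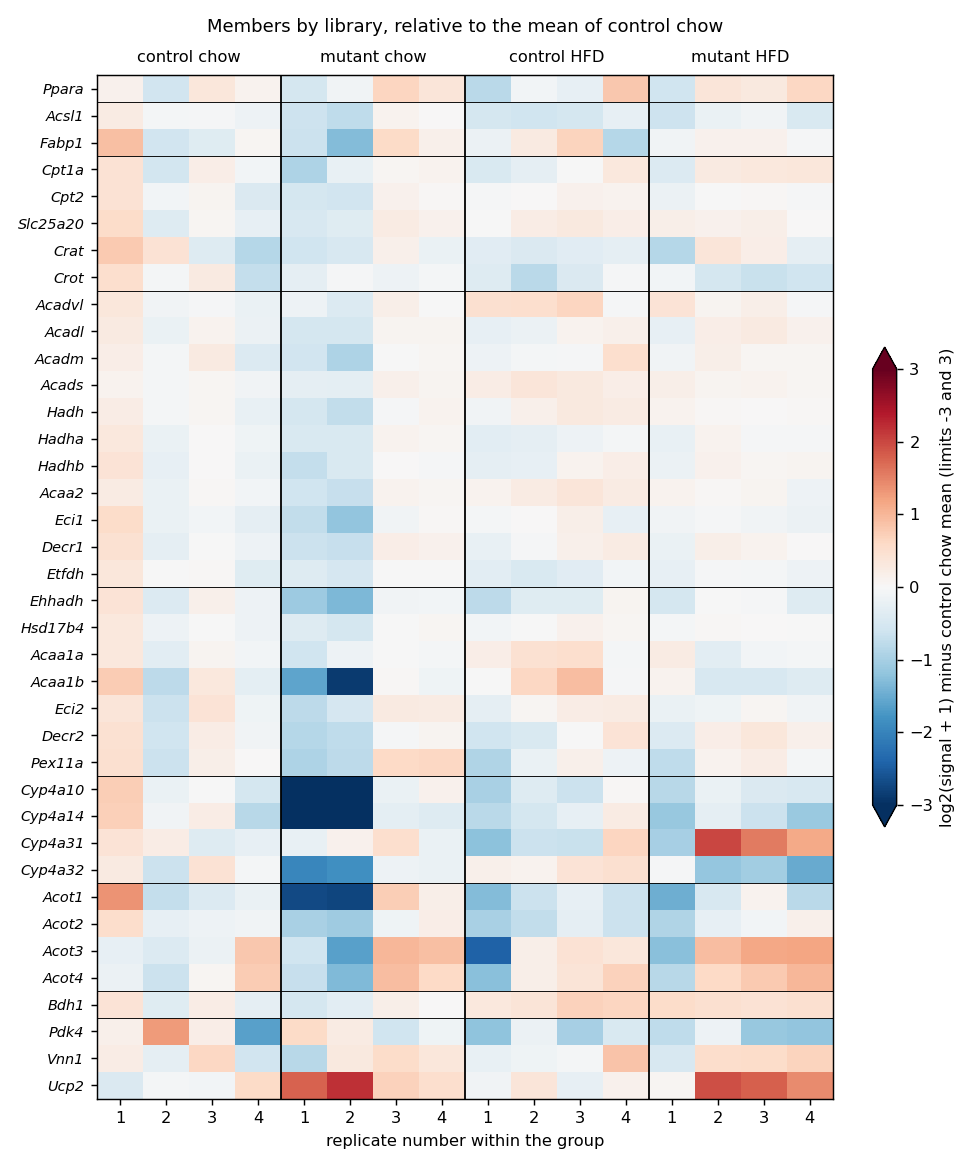
Signal of the 38 members (rows, by role) in the 16 liver libraries (columns, replicates within groups). Each value is shown as its log2 difference from that gene's mean over the control-chow libraries. Colours are capped at 3 in either direction. Mutant-chow replicates 1 and 2 are low across most roles, and control-chow replicate 1 is high.

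Whether the loss of Esr1 from Nkx2-1 cells alters hepatic fatty acid oxidation genes on chow was asked first. In mutants, 33 of the 38 members had a lower mean than in controls, where all differences and directions are of means of log2(signal + 1). The omega-hydroxylases Cyp4a14 and Cyp4a10 had the most negative differences. Cyp4a14 had a log2 difference of -3.39 (SE 1.15), the most negative among all 12704 genes tested. Yet no member passed the test, and the low values came from 2 of the 4 mutant libraries, replicates 1 and 2. Without those 2 libraries only 12 of the 38 members were lower in mutants. Because these 2 were chosen for low values of the same members, leaving them out, here and below, shifts directions by construction. It shows where the direction came from and is no independent test.

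Cyp4a14 (chr4:115486200-115496142, GRCm38, minus strand) read 608, 341.96, 431 and 208 in the control-chow libraries and 5.98, 1.61, 299.5 and 280.4 in the mutant-chow libraries. Mutant replicates 1 and 2 were far below all the other 14 libraries, while replicates 3 and 4 lay inside the control range. The ratio of means was 0.370 (exact permutation test, p = 0.114, two-sided, with 0.0286 the smallest p that 4 against 4 can give), and limma gave an unadjusted p of 0.00973 and an adjusted p of 0.729. Without mutant-chow replicates 1 and 2 the log2 difference was -0.35.

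Its neighbour Cyp4a10 (chr4:115518264-115533649, plus strand) read 481, 254, 288 and 199 in controls and 31.2, 8.82, 253.8 and 315.2 in mutants. The same 2 mutant libraries were low and mutant replicates 3 and 4 were as high as controls. The log2 difference was -2.03 (SE 0.79, limma adjusted p = 0.804), and -0.033 without the 2 libraries. Cyp4a32 (chr4:115600969-115621602, plus strand), in the same cluster, read 11.98, 5.95, 13.6 and 9.40 in controls and 1.78, 2.02, 8.76 and 8.38 in mutants, a log2 difference of -1.04 (SE 0.41). Cyp4a31, which lies between Cyp4a10 and Cyp4a32, did not share the pattern, with 5.15 to 9.55 in controls and 5.84 to 10.3 in mutants.

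Among the peroxisomal members the same 2 libraries were lowest for Acaa1b and Ehhadh. Acaa1b, which removes acetyl-CoA in the last step of the peroxisomal cycle, read 1575, 537, 1155 and 761 in controls and 308, 125, 948.5 and 845 in mutants. Its log2 difference was -1.14 (SE 0.51, limma adjusted p = 0.804). Ehhadh, the peroxisomal bifunctional enzyme, read 249.8, 141, 209.9 and 169 in controls and 88.5, 73.8, 175 and 178.5 in mutants. Its log2 difference was -0.65 (SE 0.28) and -0.09 without mutant replicates 1 and 2. All 7 peroxisomal members had a negative log2 difference, from -1.14 to -0.12, but Acaa1a and Eci2 in mutant replicate 2, at 186 and 181, lay inside their control ranges.

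Mitochondrial genes showed the pattern with smaller steps. All 11 members of beta-oxidation had a lower mutant mean, with log2 differences from -0.50 for the enoyl-CoA isomerase Eci1 to -0.08 for the short-chain dehydrogenase Acads. Eci1 read 249, 148, 161 and 141 in controls and 102, 74.3, 157.9 and 175 in mutants. The 5 carnitine shuttle genes, among them Cpt1a, which makes acylcarnitines at the outer membrane, lay between -0.27 and -0.12. The 4 thioesterases lay between -1.14 and -0.08, led by the cytosolic enzyme Acot1, which read 79.2, 18.2, 22.9 and 26.5 in controls and 3.87, 3.71, 51.8 and 34.7 in mutants.

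**Figure D2:**
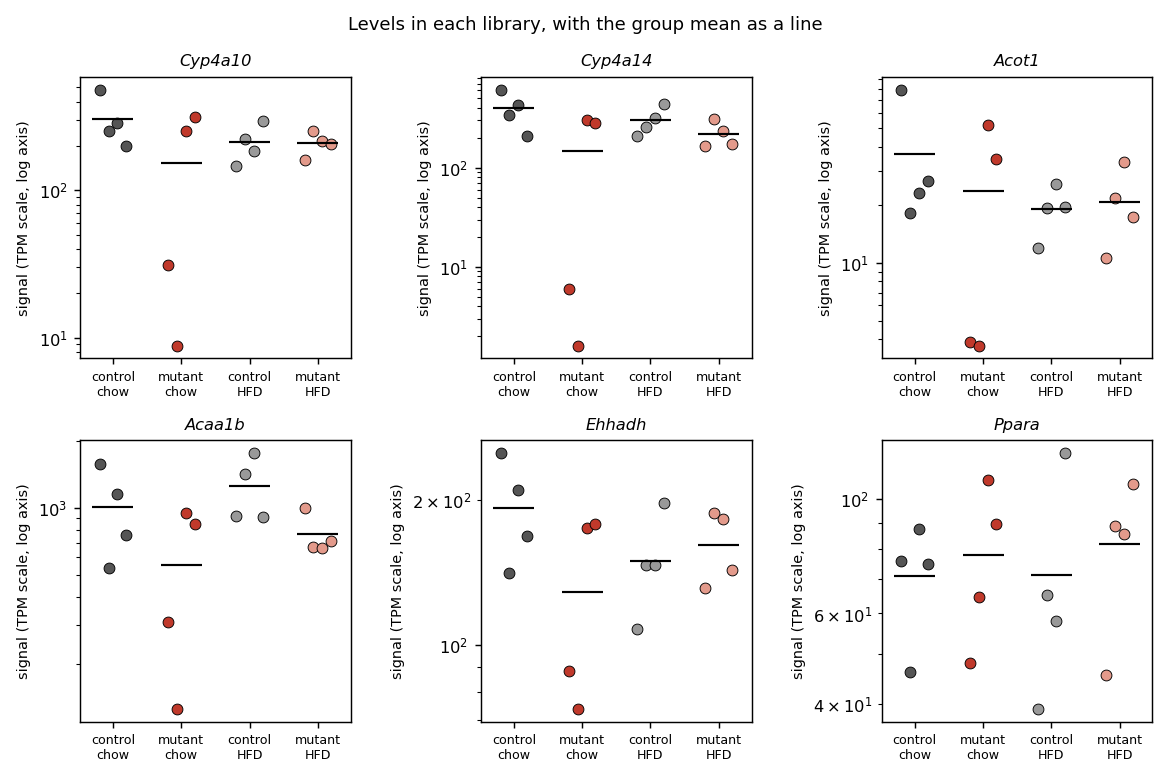
Signal (log axis) of Cyp4a10, Cyp4a14, Acot1, Acaa1b, Ehhadh and Ppara in every liver library, by group, with a line at each group mean. Within mutant-chow, replicates 1 and 2 lie below replicates 3 and 4 for all 6 genes, for Ppara with 48.1 and 64.5 against 109 and 89.6.

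Ucp2, which encodes a mitochondrial carrier of the inner membrane that is also abundant in macrophages, went the other way. It read 26.2, 34.5, 33.95 and 53.4 in control-chow and 124, 167, 58.1 and 50.8 in mutant-chow libraries. Mutant replicates 1 and 2 were again the extreme libraries, now the highest, and replicate 4 lay inside the control range. The log2 difference was 1.28 (SE 0.41, limma unadjusted p = 0.00648, limma adjusted p = 0.677), and 0.59 without those 2 libraries. The exact permutation test, which uses no shared spread, gave p = 0.0571 (two-sided).

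By limma, 0 of 38 members passed the adjusted threshold of 0.05 on chow, beside 0.0236% of all genes. At an unadjusted p under 0.05, 1 member was higher and 6 were lower, beside 4.23% and 1.85% of all genes in those directions. No member had groups that did not overlap, beside 3.05% of all genes. The median log2 difference of the members was -0.23, against 0.02 for all genes tested. It was 0.08 without mutant-chow replicates 1 and 2 and -0.11 without control-chow replicate 1. At an unadjusted p under 0.05 no member was higher or lower without those 2 mutant libraries, beside 367 of all genes in either direction. Such calls were rare among all genes in that setting, so their absence does not set the 38 members apart.

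Mutant-chow replicate 2 was the lowest of the 16 libraries for 20 members, or 52.6% of them, and for 10.8% of all genes. Replicate 1 was the lowest for a further 11 members, or 28.9%, and for 5.66% of all genes. At the other end, control-chow replicate 1 was the highest library for 20 members, or 52.6%, and for 4.3% of all genes. The median member SD between libraries on the log2 scale was 0.478 in mutant-chow and 0.384 in control-chow, against 0.233 and 0.2 for all genes. On HFD the members' median SDs were 0.285 in controls and 0.248 in mutants, against 0.26 and 0.219.

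Other gene lists also varied between these libraries. Summed over 12 acute-phase genes, such as the serum amyloids, haptoglobin and haemopexin, mutant-chow replicate 1 had 17380 and replicate 2 had 107300, against 6890 and 7515 in replicates 3 and 4 and 6295 to 7842 in the controls on chow. On HFD it was 24210, 11790, 9199 and 6501 in controls and 6972 to 11040 in mutants, so replicate 2 was above all other libraries and replicate 1 was not. The sum of 6 Kupffer cell genes was 468.5 and 549 in replicates 1 and 2, and 111.5 to 391 in the other 14 libraries, with the defining genes Clec4f, Cd5l, Vsig4 and Timd4 detected in all. The sum over lymphocyte genes came to 21.2 and 28.9, against 6.29 to 17.7 elsewhere. The sum of 12 circadian clock genes was 221 and 235 in these libraries and 640 and 520 in the other mutant-chow libraries. In control-chow it was 234.9 to 775, where control replicate 2 was as low. The list did not move as 1, since Arntl, Npas2, Clock and Nfil3 were higher in mutant-chow replicates 1 and 2 than in replicates 3 and 4. Arntl read 10.97 and 5.61 against 0.953 and 1.95, while the other clock genes, such as Dbp and Tef, were lower. The part of any of these in the members' values was not tested, and in whole liver fewer cells of a type and less RNA per cell cannot be told apart.

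On HFD, the direction of the members as a list depended on the title series. With all libraries the means of 20 members were higher and of 18 lower in mutants than in controls, and the median log2 difference was 0.03, against 0.02 for all genes. With the series as a term 31 were lower, while 50.7% of all genes were higher. Within the lower-numbered series 32 were lower and within the higher-numbered series 23 were, while 49.9% of all genes were higher in each. Each series holds 1 library of 1 genotype, so its count leans on that library. The largest differences were those of Cyp4a31 and Ucp2, higher in mutants, and Cyp4a32, lower in mutants. None passed the test with all libraries, and in each of the 3, mutant replicate 1, the mutant of the lower-numbered title series, lay nearest to the controls. Leaving that library out therefore widens these differences by construction.

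Ucp2 (chr7:100493337-100502020, plus strand) read 33.4, 46.7, 29.8 and 39.5 in control-HFD and 37.5, 139, 126.5 and 97.0 in mutant-HFD libraries. Mutant replicates 2, 3 and 4 exceeded every control and replicate 1 did not. The log2 difference was 1.26 (SE 0.41, limma unadjusted p = 0.0073, limma adjusted p = 0.527, beside 1.28 on chow). The exact permutation test gave p = 0.0857 (two-sided). The Kupffer cell sum was 203 to 313 in mutant-HFD and 246 to 391 in control-HFD libraries. Without mutant-HFD replicate 1 the log2 difference of Ucp2 was 1.67 and the limma adjusted p was 0.0366. With the title series as a term it was 0.82 and the limma adjusted p was 1.

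Cyp4a32 read 10.9, 10.7, 13.3 and 14.0 in controls and 9.61, 3.85, 4.24 and 2.80 in mutants. All 4 mutants lay below all 4 controls, with replicate 1 just below (exact permutation test, p = 0.0286, two-sided, the smallest possible). The log2 difference was -1.22 (SE 0.41, limma adjusted p = 0.527), -1.52 without mutant-HFD replicate 1 (limma adjusted p = 0.0829) and -0.98 with the series as a term. In the fit with the series term Cyp4a32 had a limma unadjusted p of 0.0438 and did not pass the adjusted threshold. Cyp4a31 (chr4:115563649-115579015, plus strand) read 2.41, 4.09, 4.01 and 11.50 in controls and 2.99, 31.1, 22.5 and 16.4 in mutants, a log2 difference of 1.40 (SE 0.52). The 1 control of the higher-numbered series was the highest control, and the 1 mutant of the lower-numbered series was as low as controls. Within the lower-numbered series the log2 difference was -0.15 and within the higher-numbered series 0.92, each with 1 library in an arm, whose spread was taken from the other groups. Without mutant-HFD replicate 1 it was 2.04 and the limma adjusted p was 0.0135.

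The Cyp4a genes are near copies of each other. Of the 31-base words in its transcripts, 62.8% for Cyp4a32, 44.9% for Cyp4a10 and 32% for Cyp4a31 also occurred in another gene, and Cyp4a32 shared 49.2% with Cyp4a10. How the pseudoalignment divided reads between them is therefore uncertain, and their separate values, including the opposite directions of Cyp4a31 and Cyp4a32, should be read with that limit. Cyp4a14 shared 1.99%. Acaa1b shared 50.1%, of which 40.0% with its paralogue Acaa1a, and 13 members shared more than 10%.

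Acaa1a, Acads and Acadvl complete the 6 members with the smallest p on HFD. Acads, which dehydrogenates short chains, read 174, 193, 182 and 171 in controls and 168, 157, 161 and 156 in mutants. The groups did not overlap, but the step was small, at -0.17 on the log2 scale (SE 0.11, limma adjusted p = 0.635). Acaa1a, the other peroxisomal thiolase, had group means of 255 ± 44.5 (SD, n = 4) and 201 ± 32.6, a log2 difference of -0.34 (SE 0.18). Acadvl, the very-long-chain dehydrogenase, had 339.1 ± 65.2 and 285 ± 39.4 (SD, n = 4), a log2 difference of -0.24 (SE 0.17), which was 0.11 within the higher-numbered series.

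By limma, 0 of 38 members passed the adjusted threshold on HFD, beside 0.0157% of all genes. At an unadjusted p under 0.05, 2 members were higher and 1 was lower, beside 4.77% and 3.83% of all genes. The groups of 2 members did not overlap, Acads and Cyp4a32, both lower in mutants, beside 1.31% of all genes. With library weights, by which replicates that lie far from their group count less, 5 members passed (Cyp4a31, Ucp2, Cyp4a32, Acaa1a and Acadvl), when 3926 of all genes did. The lowest weights were those of control-HFD replicate 4 (0.228) and mutant-HFD replicate 1 (0.329). Each was the 1 library of its group in the other title series, so genotype and series lie closer together under the weights. The members' median was -0.11 in the fit with a series term, and within the lower-numbered and higher-numbered series it was -0.15 and -0.10.

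**Figure D3:**
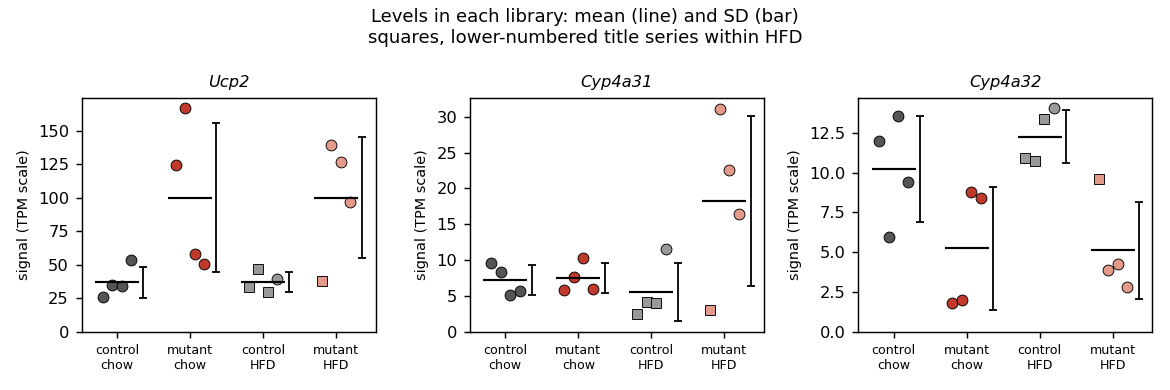
Signal of Ucp2, Cyp4a31 and Cyp4a32 in every liver library, by group, with group means and SD bars (n = 4). Squares mark the lower-numbered title series on HFD, in which the 1 mutant-HFD library lies with the controls for Ucp2 and Cyp4a31.

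Averaged over the diets, with 8 libraries of each genotype, Ucp2 had a log2 difference of 1.27 (SE 0.29, unadjusted p = 0.00048, limma adjusted p = 0.158). Cyp4a32 had -1.13 (SE 0.29, limma adjusted p = 0.235), and Acaa1b had -0.91 (SE 0.36, limma adjusted p = 0.492). By limma, 0 of 38 members passed, beside 0.0630% of all genes. At an unadjusted p under 0.05, 1 was higher and 4 were lower, beside 5.58% and 3.40%. Without mutant-HFD replicate 1 both Ucp2 (1.48, limma adjusted p = 0.00658) and Cyp4a32 (-1.28, limma adjusted p = 0.0441) passed. On HFD that library was the mutant nearest to the controls for both genes, so these calls are no independent support. Leaving it out also removes the mutant of the lower-numbered HFD series, so that genotype and series then lie closer together. With the series as a term neither passed, at 1.05 for Ucp2 (limma adjusted p = 0.393) and -1.10 for Cyp4a32 (limma adjusted p = 0.352). Across the members 31 were lower in mutants, and 15 were when mutant-chow replicates 1 and 2 were left out.

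**Figure D4:**
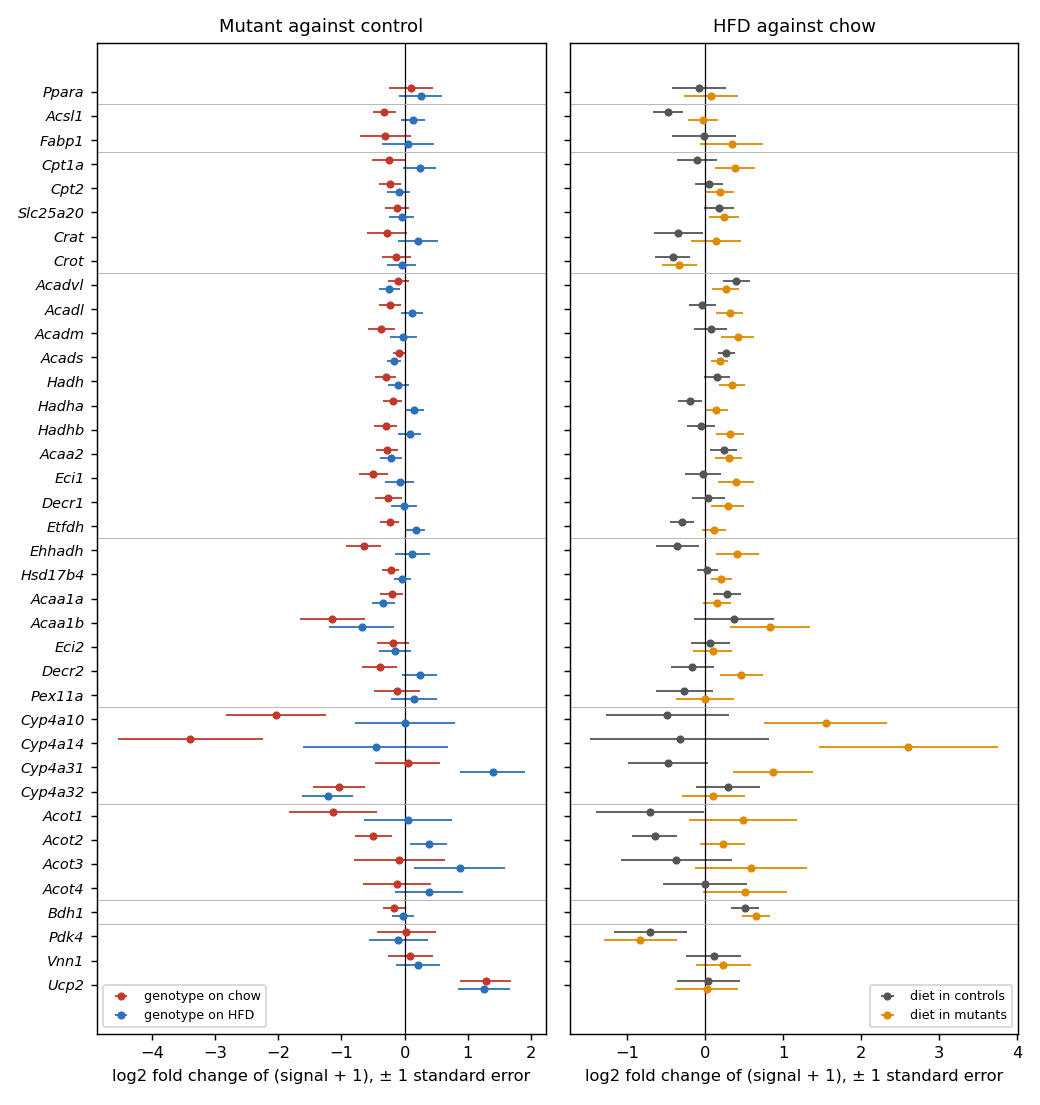
Log2 differences of the 38 members, on the log2(signal + 1) scale, with bars of 1 SE from the limma fit. Mutant against control is shown on chow (red) and HFD (blue), and HFD against chow in controls (grey) and mutants (orange). Cyp4a14 lies farthest from 0, at -3.39 for genotype on chow.

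Whether the members differed between HFD and chow was asked in each genotype. Each title series lay within 1 diet, so a difference by diet cannot be told apart from one between series. Bdh1 (chr16:31422280-31458901, plus strand), the mitochondrial enzyme that interconverts acetoacetate and beta-hydroxybutyrate, was the member that differed most steadily by diet, with higher values on HFD in controls and in mutants. The dehydrogenases Acads and Acadvl were also higher on HFD, and Acsl1, the peroxisomal carnitine acyltransferase Crot and Pdk4 were lower. None passed the adjusted threshold with all libraries.

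Bdh1 read 323.6, 189, 283 and 202 in control-chow and 301.5, 319.9, 391 and 383 in control-HFD libraries. Control-chow replicate 1 lay inside the HFD range (exact permutation test of diet in controls, p = 0.0857, two-sided). In mutants it read 168, 194.5, 275 and 245 on chow and 357, 339.1, 329 and 339.6 on HFD, and the groups did not overlap (exact permutation test, p = 0.0286, two-sided). The log2 differences were 0.51 in controls (SE 0.18, limma adjusted p = 0.278) and 0.65 in mutants (SE 0.18, limma adjusted p = 0.512). Averaged over the genotypes the difference was 0.58 (SE 0.13, unadjusted p = 0.000359, limma adjusted p = 0.0877). It passed without control-chow replicate 1 (limma adjusted p = 0.0495), without control-HFD replicate 4 (limma adjusted p = 0.0419) and with library weights (limma adjusted p = 0.028). Control-chow replicate 1 was the highest chow library for Bdh1, so leaving it out widens the difference by construction. With the weights many more of all genes passed too. These calls share the libraries of the main fit and are no independent support.

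In controls, Acads read 161, 143, 155 and 139 on chow and 174, 193, 182 and 171 on HFD, with no overlap and a log2 difference of 0.27 (SE 0.11, limma adjusted p = 0.321). Acsl1, which activates long chains at the start of the pathway, read 513, 413.5, 418 and 386 on chow and 296, 284, 299 and 361 on HFD, again with no overlap and a log2 difference of -0.48 (SE 0.19, limma adjusted p = 0.314). In mutants its group means were 357 ± 107 and 341.5 ± 56.4 (SD, n = 4). Acot2, the mitochondrial thioesterase, read 17.0, 9.58, 10.2 and 10.6 in controls on chow and 5.43, 6.54, 9.48 and 6.997 on HFD, a log2 difference of -0.65 (SE 0.29).

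Acadvl read 322, 234.5, 248 and 219 in control-chow and 351.5, 360.0, 399 and 246 in control-HFD libraries. The 3 controls of the lower-numbered series were the high ones, and the 1 control of the higher-numbered series lay among those on chow. The log2 difference was 0.40 (SE 0.17, limma adjusted p = 0.34), 0.54 without the higher-numbered HFD series (limma adjusted p = 0.0487) and -0.039 without the lower-numbered series. Etfdh, which passes electrons from the dehydrogenases to ubiquinone, had 159 ± 31.4 on chow and 128 ± 14.6 on HFD in controls (SD, n = 4), a log2 difference of -0.30 (SE 0.15).

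In mutants the means of 34 of the 38 members were higher on HFD than on chow, with a median log2 difference of 0.27 against -0.01 for all genes. Cyp4a14 had the largest difference, 2.61 (SE 1.15, limma adjusted p = 0.722), with 5.98, 1.61, 299.5 and 280.4 on chow and 167, 307, 235 and 171 on HFD. Cyp4a10 had 1.55 (SE 0.79), with 161, 252.5, 215 and 207 on HFD. The low chow values lay in mutant-chow replicates 1 and 2, which were chosen for being low. Without those 2 libraries 10 members were higher and 28 lower on HFD, the median was -0.13, Cyp4a14 had -0.44 and Cyp4a10 had -0.45.

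Acadm had group means of 311 ± 95.5 on chow and 401 ± 30.6 on HFD in mutants, and Hadh, the dehydrogenase of the third step of the mitochondrial cycle, had 286 ± 76.9 and 353 ± 11.7 (SD, n = 4). Their log2 differences were 0.42 (SE 0.21) and 0.34 (SE 0.17). Pdk4 read 9.33, 7.26, 3.59 and 5.31 on chow and 3.11, 5.24, 2.16 and 2.05 on HFD, a log2 difference of -0.83 (SE 0.47, limma adjusted p = 0.763). In controls Pdk4 spanned 1.25 to 15.7 on chow, a wider range than the step between diets.

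By limma, 0 of 38 members passed the adjusted threshold for diet in controls or in mutants, beside 0% of all genes in either contrast. At an unadjusted p under 0.05, 3 were higher and 2 lower in controls, beside 6.40% and 6.52% of all genes, and 2 were higher and 0 lower in mutants, beside 2.71% and 4.16%. Groups did not overlap for 1 member that was higher and 2 that were lower in controls, beside 3.38% and 2.98% of all genes, and for 1 that was higher in mutants, beside 1.67%. Averaged over genotypes, 0 members passed, beside 0.134% of all genes. At an unadjusted p under 0.05, 4 were higher and 2 lower, beside 6.82% and 7.24%. Acads had 0.23 (SE 0.08, limma adjusted p = 0.218) and Acadvl 0.33 (SE 0.12, limma adjusted p = 0.244). Means were higher on HFD for 28 of 38 members, and for 11 when mutant-chow replicates 1 and 2 were left out.

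**Figure D5:**
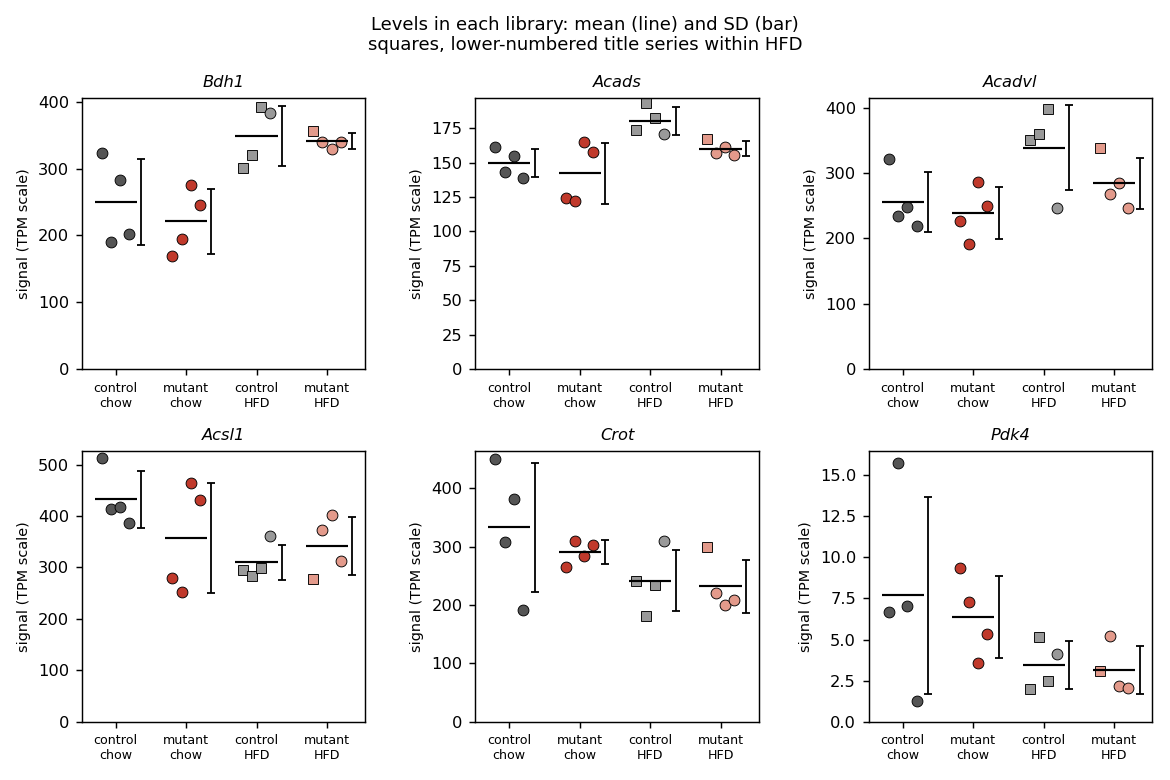
Signal of Bdh1, Acads, Acadvl, Acsl1, Crot and Pdk4 in every liver library, by group, on axes from 0, with group means and SD bars (n = 4). Squares mark the lower-numbered title series on HFD. Bdh1 lies between 168 and 323.6 on chow and between 301.5 and 391 on HFD.

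The interaction asks whether the genotype difference itself differed between diets, and the contrasts above share its libraries. It was positive for 32 of the 38 members, with a median of 0.34 against -0.01 for all genes, and for 15 members without mutant-chow replicates 1 and 2. Acot2 had 0.87 (SE 0.41, unadjusted p = 0.0493, limma adjusted p = 0.895), Ehhadh 0.77 (SE 0.39) and Etfdh 0.41 (SE 0.21). By limma, 0 of 38 members passed, beside 0% of all genes, and at an unadjusted p under 0.05 1 was higher and 0 lower, beside 1.79% and 2.42%. For Ucp2 the interaction was -0.02.

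Ppara (chr15:85734983-85802819, plus strand), the receptor itself, had group means close to each other. It read 75.9, 46.3, 87.4 and 74.9 in control-chow, 48.1, 64.5, 109 and 89.6 in mutant-chow, 39.2, 65.2, 58.0 and 123 in control-HFD and 45.6, 88.9, 85.4 and 107 in mutant-HFD libraries. In mutant-chow its lowest libraries were replicates 1 and 2, as for many members. The ranges of all 4 groups overlapped, and its log2 differences were 0.10 for genotype on chow (SE 0.34), 0.25 on HFD, -0.08 for diet in controls and 0.07 in mutants. Each of these signs turned under other settings. Its values were higher in the higher-numbered HFD series, with a log2 difference of 1.11 (SE 0.23, limma adjusted p = 0.00451). In that fit 3 members were higher in this series (Cyp4a31, Ppara and Vnn1, the pantetheinase) and 1, Acadvl, was lower, beside 25.2% of all genes called in either direction.

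A further 79 genes of fatty acid uptake, activation, oxidation, ketogenesis and PPAR alpha response were examined, of which 74 could be tested. Across the contrasts 1 passed the adjusted threshold, Fabp2, the intestinal-type fatty acid binding protein. It was higher on HFD averaged over genotypes, by 1.199 on the log2 scale (SE 0.19, limma adjusted p = 0.0256), beside 0.134% of all genes that passed. The call was lost without the lower-numbered HFD series (limma adjusted p = 0.127) and without any 1 of control-chow replicates 2 and 4, control-HFD replicates 1, 2 and 3, mutant-chow replicate 1 and mutant-HFD replicates 2 and 3. With 1 library left out its limma adjusted p ran from 0.0108 to 0.0731. It read 52.7 to 112 in control-chow, 135 to 154 in control-HFD, 36.5 to 90.6 in mutant-chow and 116 to 169.9 in mutant-HFD libraries, with no overlap between diets in either genotype. In controls 4 of the 74 genes lay wholly above chow on HFD and 4 wholly below, beside 3.38% and 2.98% of all genes. Those above were Fabp2, Acot13, Phyh and Pccb, of which the last 3 were named after their values were seen. Of those below, the acyl-CoA synthetases Acsl5 and Acsl3 and the aldehyde dehydrogenase Aldh9a1 had log2 differences of -0.95, -0.66 and -0.52. The 4th was Hacl1, a peroxisomal lyase of branched chains, which also lay wholly below chow in mutants, with a log2 difference of -0.52. In mutants 1 gene lay wholly above and 1 wholly below, beside 1.67% and 1.86% of all genes. Between genotypes on HFD, 1 of the 74 genes lay wholly above controls and 5 wholly below, beside 1.39% and 1.31% of all genes. Cpt1b, the muscle-type carnitine palmitoyltransferase, read 3.26, 2.69, 3.62 and 1.498 in controls and 0.91, 0.86, 1.13 and 0.49 in mutants, a log2 difference of -1.001 (SE 0.32, limma adjusted p = 0.527). The thioesterase Acot13 and the fatty acid hydroxylase Cyp4f15 also lay wholly below controls, with log2 differences of -0.36 and -0.28, and Abhd5, the co-activator of adipose triglyceride lipase, lay above, with 0.33.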

How the data were processed

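Total RNA of female livers was sequenced by the authors in 16 libraries, and abundances were estimated with kallisto and modelled with sleuth on build mm10, per the labels. Versions and the annotation are not given in the sources used here. The deposited values are a gene-level signal on the TPM scale, adjusted between libraries by the authors, and they hold no read counts, so no count test was run and the depth is unknown. Such values depend on how reads were divided between near-identical genes and on the few genes that take most of a library.

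Values were tested as log2(signal + 1) with limma 3.58.1 (R 4.3.3, eBayes with trend) in 1 fit of 4 group means over 12704 genes at 1 or more in at least 4 libraries, with Benjamini-Hochberg adjustment over all of them and a threshold of 0.05. Fold changes on this scale understate the change of low genes. The sleuth test of the study needs repeat estimates that a gene table does not hold, so limma stood in for it. All 7 contrasts came from that fit, and those that share groups are not independent. Named members were also tested with exact two-sided permutation tests of 4 against 4 libraries (scipy 1.17.1). Named in full were Ppara, the 6 members with the smallest unadjusted p in each contrast of a pair of groups and the 3 smallest in each other contrast. Of other pathway genes, those past the threshold were named, and otherwise up to 4 per contrast of a pair of groups, by smallest p among those whose groups did not overlap. Eci1, Acot1, Crot, Vnn1, Cpt1a and the most and least abundant members were named after their values were seen. The fit was tested on simulated data.

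Replicates were numbered in accession order. Positions came from GENCODE M21 (GRCm38), shared 31-base words from its transcripts, and promoters from RefSeq. The members, gene lists and alternatives were chosen with earlier results of these data known. The 26 alternatives changed the scaling, filter, pseudocount, weights, libraries or title series 1 at a time, and counts of member directions and the values of Fabp2 under each were added after seeing the data.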

Additional observations from a re-analysis of the deposited data

Results flagged for a closer look

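Each member was examined in each group of 4 libraries for 1 library set far apart from the other 3, by a gap over 0.829 of the group's range. Of 152 such groups 8 were marked, or 5.26%, and chance marks about 1 in 20.

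On chow, control replicate 1 stood apart with Acot1 at 79.19, against 18.21 to 26.51 in the other controls, and with Acot2 at 17.01, against 9.576 to 10.59. Control replicate 4 stood apart with Acot3, a peroxisomal thioesterase, at 219.5, against 94.05 to 110.7.

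On HFD, control replicate 4, the control of the higher-numbered title series, had Acadm at 550.0, against 349.1 to 378.6 in the other controls, and Vnn1 at 73.86, against 34.49 to 39.17. Mutant replicate 1, the mutant of the lower-numbered series, had Cpt1a at 91.88, against 147.8 to 153.7 in the other mutants, Vnn1 at 28.84, against 59.14 to 65.21, and Acaa1b at 1002, against 662.4 to 712.0. In 5 of the 8 cases the library was thus the 1 library of its HFD group that lay in the other title series. What the series stands for is not stated, and its part in these values was not tested.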

How the results depend on the processing

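No paired analysis was possible because the labels and columns carry no replicate numbers shared between groups. Depth is unknown, so the counting error of low members such as Pdk4, Cyp4a31 and Cyp4a32 cannot be estimated. No member passed for genotype on chow, diet in mutants or the interaction under any of the alternatives run. Another scaling, filter or pseudocount left 0 members past the threshold in every contrast.

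Of all genes, genotype on chow gave 3 calls. It gave 1 with a filter at 5, 6 with library weights, 6 when the fit held the compared groups alone, 1 with the title series as a term, 6 without the lower-numbered and 12 without the higher-numbered HFD series, and 1 to 14 with a replicate left out. Genotype on HFD gave 2 calls of all genes. It gave 3926 (5 members) with weights, 1 with the compared groups alone, 20 without the lower-numbered series, and 2 to 141 (0 to 2 members) with a replicate left out, the most without mutant-HFD replicate 1. Diet in controls gave 0 calls, 2264 (3 members) with weights, 4 with the compared groups alone, 11 without the lower-numbered series, 1407 (2 members) without the higher-numbered series, 3 without mutant-chow replicates 1 and 2, and 0 to 925 with a replicate left out, the most without control-HFD replicate 4. Diet in mutants gave 0 calls, 9 with weights, 1 with the compared groups alone, 2 without the lower-numbered series, 75 without the higher-numbered series, 2 without mutant-chow replicates 1 and 2, and 0 to 2 with a replicate left out. The interaction gave 0, 3 without the lower-numbered and 2 without the higher-numbered series.

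Genotype averaged over diets gave 8 calls of all genes, 4 with the filter at 5, 1020 (3 members) with weights, 29 without the lower-numbered series, 5 without mutant-chow replicates 1 and 2, and 6 to 119 (0 to 2 members) with a replicate left out. Diet averaged over genotypes gave 17 calls, 680 (2 members) with weights, 10 without the lower-numbered series, 2067 (2 members, Acadvl and Cyp4a31) without the higher-numbered series, and 0 to 398 (0 to 1 member) with a replicate left out, the fewest without control-chow replicate 4. The lowest weights were those of control-HFD replicate 4 and mutant-HFD replicate 1, at 0.228 and 0.329. Each was the 1 library of its HFD group that lay in the other title series. Why the weights moved these counts was not tested.

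Leaving out mutant-chow replicates 1 and 2 gave a member median of -0.13 for the diet contrast of mutants and of -0.10 for the interaction. In mutants it turned the log2 difference by diet to -0.44 for Cyp4a14, -0.45 for Cyp4a10 and -0.34 for Ppara. Cyp4a31 turned to -0.15 (genotype, HFD) without the higher-numbered series. Acadvl turned to 0.11 (genotype, HFD) and -0.039 (diet, controls) without the lower-numbered series.

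Ppara kept no direction. With the series as a term its log2 difference by genotype was -0.052 (chow), -0.30 (HFD) and -0.18 (averaged), with -0.25 for the interaction. Without the lower-numbered series it was -0.39 (genotype, HFD), -0.15 (genotype, averaged), 0.82 (diet, controls) and 0.57 (diet, averaged), with an interaction of -0.49. Without the higher-numbered series it was -0.21 (genotype, HFD), -0.056 (genotype, averaged) and -0.69 (diet, mutants), with an interaction of -0.31. The interaction was -0.26 without mutant-chow replicates 1 and 2, and the averaged diet difference was 0.015 with median-of-ratios size factors. With a replicate left out, Ppara ran from -0.091 to 0.30 (genotype, chow), -0.38 to 0.16 (diet, controls), -0.13 to 0.33 (diet, mutants), -0.16 to 0.12 (diet, averaged) and -0.089 to 0.45 for the interaction.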

Other observations

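Esr1, which is not a member and was looked at after its values were seen, read 19.7 and 17.0 in mutant-chow replicates 1 and 2 and 9.98 and 8.02 in replicates 3 and 4. On HFD it read 22.9, 21.1 and 20.5 in mutant replicates 2, 3 and 4, against 6.42 in mutant replicate 1 and 6.14 to 8.09 in the controls. The same 5 mutant libraries held the 5 highest values of Ucp2, from 97.0 to 167. Controls on chow had Esr1 at 10.99, 12.2, 7.59 and 15.95.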
